A study of Mus musculus with 2 samples.

Results

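Transcripts of 10 inflammatory CC chemokine genes (Ccl2, Ccl3, Ccl4, Ccl5, Ccl6, Ccl7, Ccl8, Ccl9, Ccl12 and Ccl24) were compared between dendritic cells that carry or lack the microRNA miR-155. The members were the probe sets that the platform annotation assigns to exactly 1 of these genes, which gave 12 probe sets for 10 of the 18193 genes named on the array. Ccl6 and Ccl9 had 2 probe sets each and the other 8 genes had 1. No probe set named a member together with another gene.

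The series held 2 samples of C57BL/6J bone marrow cells grown for 7 days in 20 ng/ml GM-CSF, a growth factor that yields dendritic cells and macrophages from marrow. One came from wild-type mice and the other from miR-155-/- mice, and both were then given 10 ng/ml lipopolysaccharide (LPS), a bacterial component sensed by TLR4, in fresh medium. Each genotype was represented by 1 Affymetrix array, so no spread between samples exists and no p-value was computed. Untreated cells were not analysed here, so the effect of LPS on these genes was not measured. The labels call the cells dendritic cells, but the growth protocol names macrophages. The sources used here do not give the LPS exposure time or the number of mice.

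Chemokines are small secreted proteins that direct leukocyte migration through G protein-coupled receptors, and those of the CC family are named for a pair of adjacent cysteines. Activated dendritic cells and macrophages release several of them, which draws monocytes, T cells, eosinophils and further dendritic cells to inflamed tissue. Their transcription after LPS depends on NF-kB and, for several members, on interferon signalling. miR-155 is itself induced by LPS and lowers the output of transcripts that pair with its seed. The mature strands of the deleted microRNA are shown because they define what the knockout cells lack, with the seed (bases 2 to 8) in capitals (RefSeq, GRCm38.p6, plus strand of chr16:84714143-84714165 and chr16:84714182-84714202).
mmu-miR-155-5p: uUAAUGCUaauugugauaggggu
mmu-miR-155-3p: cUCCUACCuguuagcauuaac

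As a check of the labels, the signal of Mir155hg, the transcript that carries miR-155, was 1136 on the wild-type and 159 on the knockout array after normalization. The sources used here do not say whether this probe set covers deleted sequence. The deposited values had no common scale, with a median intensity of 58.4 on the wild-type and 78.3 on the knockout array, so the log2 intensities were quantile normalized and differences (knockout minus wild type, log2) are measured against the bulk of genes. Values under the median of all normalized values, an intensity of 67.6 called the floor, were set to it, and genes that exceeded it on 1 or both arrays are called measured. The error measured inside the arrays was the SD of differences between probe sets of the same gene, 0.29 on the log2 scale over 11653 probe sets of 4410 genes. It was 0.20 at a mean signal of at least 2000 and 0.35 under 200, and it holds no variation between mice or cultures. All 11 listed dendritic cell markers were measured, among them Itgax (4290 and 5331 in wild-type and knockout cells) and Cd74 (11584 and 11156). Flt3 passed the floor in knockout cells alone (62.8 and 88.8). Of 11 macrophage and monocyte markers with a probe set, 10 were measured too, among them Csf1r (9826 and 11268). These values therefore do not decide between the 2 names given to the cells.

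Of the 10 chemokine genes, 8 lay above the floor on both arrays, and after normalization all 8 were lower in knockout cells, although only 2 of them, Ccl3 and Ccl7, were also lower in the deposited signal. Ccl7 and Ccl3 were at least 1.5-fold lower, Ccl4 and Ccl8 were lower by more than the SD of 0.29 between probe sets of all signals, and Ccl5, Ccl2, Ccl6 and Ccl9 differed by less than it. The median difference of the 8 genes was -0.25, against 0.01 over the 10355 genes above the floor on both arrays. Of those 10355 genes 48.1% were lower by any amount, 3.56% at least 1.5-fold lower and 14.6% lower by more than the SD between probe sets. None of the 8 reached a 2-fold difference in either direction, where 0.541% of these genes were 2-fold lower and 0.464% were 2-fold higher. Ccl24 lay above the floor only in knockout cells, so it could count only as higher, and Ccl12 lay below it on both arrays. In a bulk culture, fewer cells of a type and less RNA per cell cannot be told apart.

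**Figure D1:**
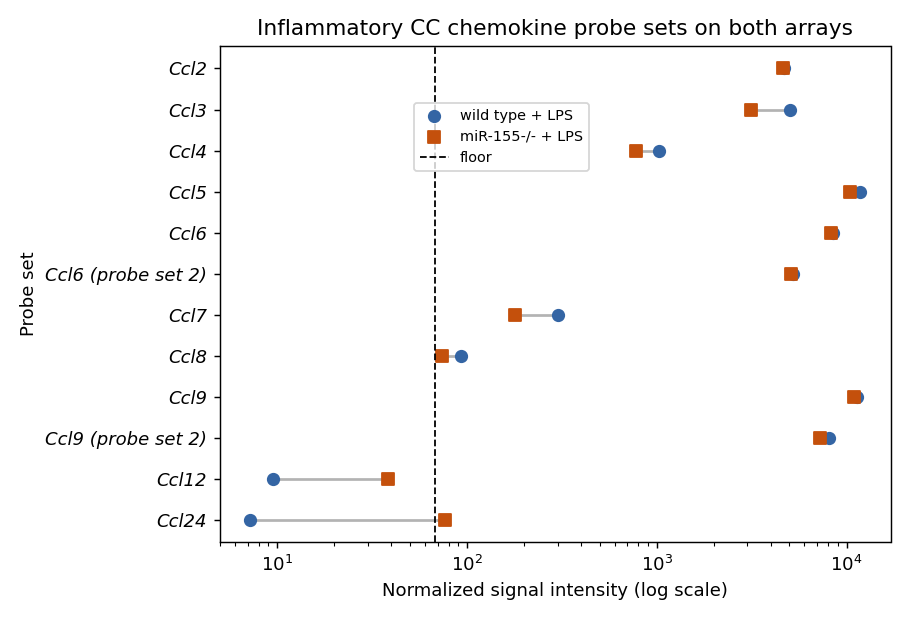
Normalized signal intensity (log scale) of each of the 12 chemokine probe sets on the wild-type (circles) and knockout (squares) array, 1 array per genotype, with the floor of 67.6 as a dashed line. The widest gaps above the floor are those of Ccl3 (5024 and 3141) and Ccl7 (300.1 and 178.9), and Ccl12 lies to the left of the floor on both arrays.

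Ccl3 and Ccl4 encode the macrophage inflammatory proteins alpha and beta, which attract monocytes and T cells, and Ccl3 acts through CCR1 among other receptors. The deposited signal of Ccl3 was 4185 in wild-type cells and 3793 in the knockout, which became 5024 and 3141 after normalization. It was 1.60-fold lower in the knockout (difference -0.68). Of the 1025 measured genes with a mean signal of at least 2000, 1.85% were at least 1.5-fold lower. Ccl4 had deposited signals of 837 and 968 and normalized signals of 1030 and 779, so that its direction depends on the scaling, and it was 1.32-fold lower after normalization (-0.40). The neighbouring genes Ccl3 and Ccl4 thus had differences 0.28 apart, less than the 0.42 that is the SD of a gap between 2 probe sets of 1 gene.

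Ccl5, also called RANTES, attracts T cells and monocytes through CCR1 and CCR3 among other receptors. Its deposited signal was 10454 in wild-type cells and 11802 in the knockout, and its normalized signal was 11769 and 10385, 1.13-fold lower (-0.18). The probe set ranked 49 of 45037 on the wild-type and 106 on the knockout array by deposited signal, where the highest signals were 15607 and 18373. Signals this close to the top of the range may be compressed, which was not tested, so the small difference does not show that Ccl5 was unchanged.

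Ccl6 and Ccl9 are rodent chemokines that act through CCR1, and their genes lie next to each other between Ccl5 and Ccl3. The first Ccl6 probe set had normalized signals of 8515 in wild-type cells and 8247 in the knockout (difference -0.05), and the second had 5225 and 5070 (-0.04). The first Ccl9 probe set had 11310 and 10949 (-0.05), and the second 8076 and 7272 (-0.15). All 4 probe sets therefore differed, after quantile normalization, by less than the SD of 0.20 between probe sets of this brightness. After quantile normalization the Ccl3 difference lay 0.63 below those of both Ccl6 and Ccl9, beyond the SD of 0.42 for such a gap. The gap to Ccl9 depends on the scaling and came close to that SD under others. With centring on the median the differences were -0.57 for Ccl3, -0.03 for Ccl6 and -0.15 for Ccl9. Cyclic loess gave -0.69, -0.12 and -0.22. The first Ccl9 probe set ranked 67 and 79 by signal, so the limit given for Ccl5 applies to it too. All 4 Ccl6 and Ccl9 probe sets were higher in the knockout in the deposited signal, by 0.28 to 0.47 on the log2 scale, which is less than the median of 0.54 over the genes with a mean signal of at least 2000.

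Ccl2, Ccl7, Ccl8 and Ccl12 form the group of monocyte chemoattractant proteins. Ccl2, Ccl7 and Ccl12 signal through CCR2, which monocytes need to leave the marrow and enter inflamed tissue, and mouse CCL8 acts through CCR8. Ccl2 had a deposited signal of 3874 in wild-type cells and 5534 in the knockout and a normalized signal of 4655 and 4612, a difference of -0.01. Ccl7 had deposited signals of 245.9 and 216.0 and normalized signals of 300.1 and 178.9, and was 1.68-fold lower (-0.75), the lowest difference among the 9 measured members. The differences of Ccl7 and Ccl2, which lie side by side, were 0.73 apart, again beyond the SD of 0.42 for such a gap.

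Ccl8 was dim, with deposited signals of 79.0 and 86.3 and normalized signals of 93.0 and 74.1. Its difference of -0.33 lay inside the SD of 0.35 between probe sets under a signal of 200. Ccl12 had deposited signals of 8.64 and 43.4 and normalized signals of 9.48 and 38.5, below the floor on both arrays, so no fold is given. The floor is not a detection call, and these values do not show whether Ccl12 was expressed.

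Ccl24, or eotaxin 2, attracts eosinophils through CCR3 and is known in mouse macrophages as a gene of alternative activation. Its deposited signal was 6.57 in wild-type cells and 89.0 in the knockout, and its normalized signal 7.20 and 76.4. Because only the knockout value exceeded the floor, and by little, Ccl24 is given as at least 1.13-fold higher. Of the 9 measured members it was the only one that was higher after normalization, where 51.5% of the 11878 measured genes were higher. None of the other 8 was at least 1.5-fold higher, against 4.57% of measured genes, and the bound on Ccl24 does not show a fold under 1.5.

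**Figure D2:**
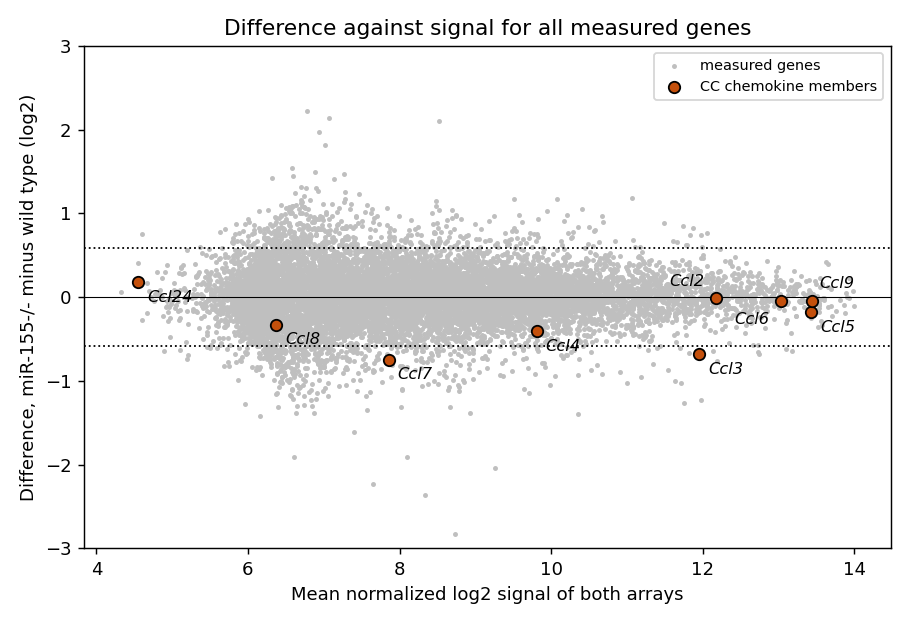
Difference between knockout and wild type (log2, with values under the floor set to it) against the mean normalized log2 signal of both arrays before the floor, for all 11878 measured genes (grey) and the 9 measured chemokine members. Dotted lines mark 1.5-fold, and Ccl3 and Ccl7 are the members below the lower line while Ccl2, Ccl6 and Ccl9 lie near 0.

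The directions rest on how the arrays are scaled. In the deposited values the median measured gene was higher in the knockout by 0.54, and 10 of 12 chemokine probe sets were higher too. With centring on the median, scaling on 18 hybridisation control probe sets and cyclic loess, the median measured gene lay at 0.14, 0.23 and 0.01. Of the 8 members that exceeded the floor on each array, 7 were lower with centring on the median, where Ccl2 was higher, 6 with hybridisation controls, where Ccl2 and Ccl6 were higher, and 8 with loess. Relative to that median gene, Ccl3 lay 0.68 to 0.70 lower and Ccl7 0.72 to 0.76 lower under those 3 scalings and in the deposited values. Ccl2 lay within 0.05 of the median gene under each of them. Ccl5 lay 0.33 to 0.39 lower and Ccl9 0.23 to 0.28 lower there, against 0.19 and 0.06 after quantile normalization. Under those settings Ccl5 thus passed the SD of 0.29, and Ccl9 the SD of 0.20 for bright probe sets. Centring and control scaling add 1 constant to each log2 difference, so outside the floor they cannot change these gaps, and only loess and quantile normalization could.

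**Figure D3:**
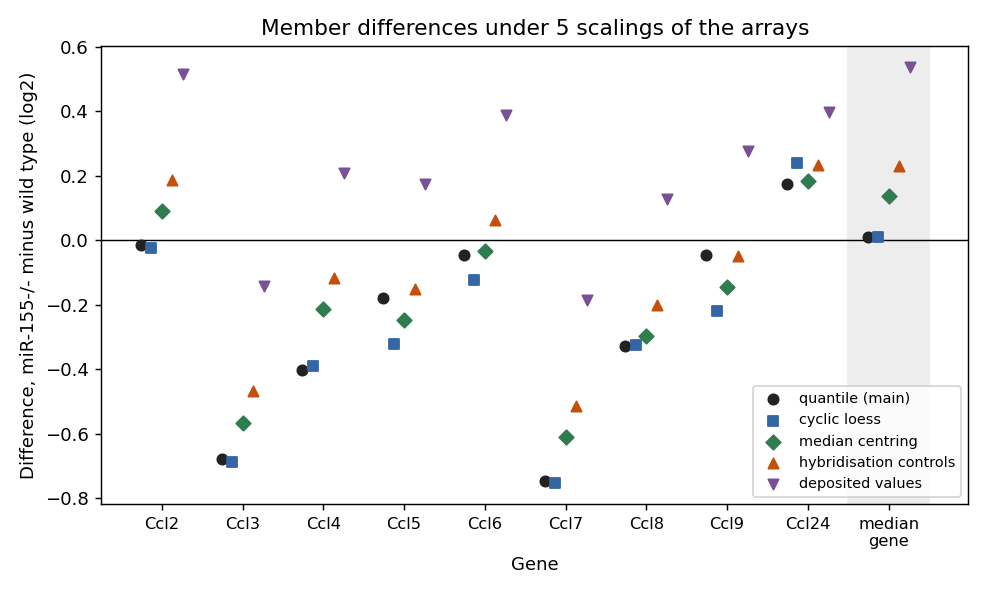
Difference between knockout and wild type (log2) of the 9 measured chemokine genes under 5 scalings of the arrays, with the median of all measured genes under the same scaling in the shaded column. The deposited values (triangles pointing down) lie highest for each gene, together with their median gene at 0.54, and Ccl3 and Ccl7 lie lowest under each scaling.

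Other CC chemokines were described beside the members. Of 12 listed, 8 had a probe set of their own and 4 were measured, and these 4 were lower in knockout cells, with a median of -0.63 after normalization and of -0.23 in the deposited values, where all 4 were lower too. Over all 11878 measured genes, 48.5% were lower by any amount and 4.1% at least 1.5-fold lower after normalization. Ccl22 and Ccl17, ligands of CCR4 produced by mature dendritic cells, had normalized signals of 11530 and 7384, and of 10808 and 7054, which is 1.56-fold and 1.53-fold lower. Ccl28, a mucosal chemokine, was dim and 1.79-fold lower (127.1 and 70.9), and Ccl25, a thymic and gut chemokine, had a difference of -0.55 (148.5 and 101.3). Ccl1, Ccl11, Ccl20 and Ccl27a lay below the floor on both arrays.

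Receptor transcripts differed in direction. Ccr1, the receptor of Ccl3, Ccl5, Ccl6 and Ccl9, had normalized signals of 4002 in wild-type cells and 4167 in the knockout (difference 0.06). Ccr2, the receptor of Ccl2, Ccl7 and Ccl12, had 1080 and 1928 and was 1.78-fold higher, with 3 of 4 probe sets higher and the lowest at -0.48. Ccr1l1, a receptor-like relative of Ccr1, exceeded the floor in wild-type cells alone and was at least 1.06-fold lower, and Ccr3 lay below the floor on both arrays.

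Ccr7, the receptor that guides mature dendritic cells to lymph nodes, had signals of 6287 and 4304 (-0.55), and Ccr4 was at least 1.36-fold lower. Ccr6, Ccr8, Ccr9 and Ccr10 lay below the floor. Among atypical receptors, which bind chemokines without driving migration, Ccrl2 was 1.79-fold lower (1290 and 721), and Ccr7 and Ccrl2 were lower in the deposited values too (-0.05 and -0.23). Ackr4 had a difference of 0.52 and Ackr1 one of 0.14, both at signals under 200, and Ackr2 and Ackr3 lay below the floor.

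**Figure D4:**
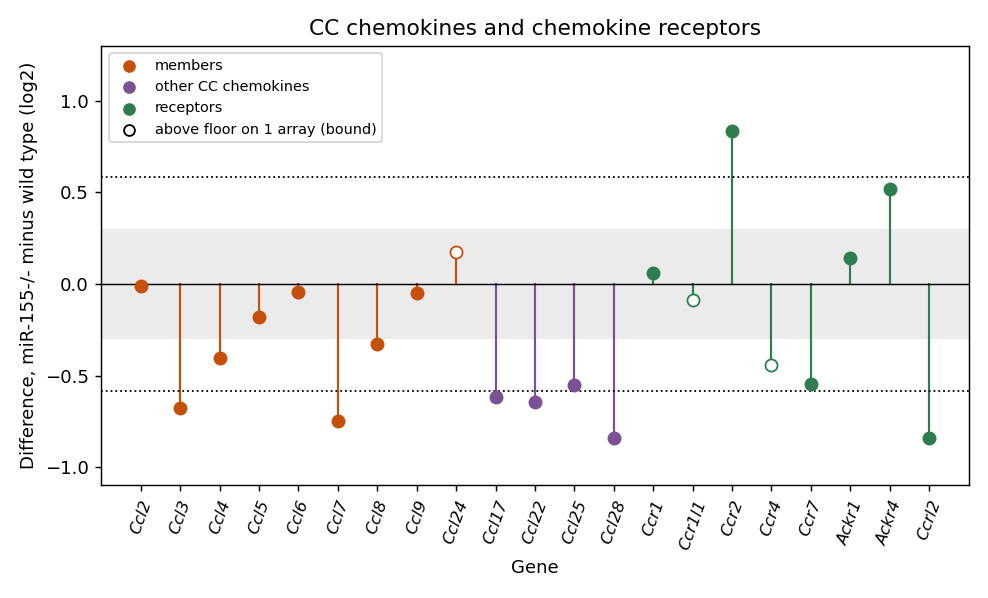
Difference between knockout and wild type (log2) of the measured CC chemokine members, other CC chemokines and chemokine receptors, 1 array per genotype. The grey band is the SD of 0.29 between probe sets of a gene, dotted lines mark 1.5-fold, and open points are bounds. Of the receptors, Ccr2 (0.84) and Ccrl2 (-0.84) lie outside the dotted lines.

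Of 26 measured regulators of LPS-induced chemokine transcripts, 20 were lower and 6 higher after normalization, with a median of -0.12, but 13 were lower with centring on the median, 8 with hybridisation controls and 3 in the deposited values. These scalings shift all genes alike, and relative to the median gene the list's median was -0.13 after quantile normalization and -0.14, -0.13 and -0.11 under them. Over all measured genes, 48.5% were lower after normalization and 4.1% at least 1.5-fold lower. Of the regulators, 3 were at least 1.5-fold lower after normalization. These were Nfkbiz, an NF-kB cofactor (1421 and 881), the interferon regulatory factor gene Irf8 (4551 and 2874), and the NF-kB subunit gene Rel (473 and 304), with 3 of 3, 2 of 2 and 1 of 1 probe sets lower. The 11 measured primary LPS response genes were lower with a median of -0.27, though 9 were lower with hybridisation controls and 4 in the deposited values. Relative to the median gene their median was -0.28 after quantile normalization and -0.40 and -0.38 under those settings. After normalization 4 were at least 1.5-fold lower: Il12b (-1.27), Il6 (-1.22), Ptgs2 (-0.87) and Tnf (-0.66).

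The genes of 9 members lie on chromosome 11 in 2 clusters, and Ccl24 lies on chromosome 5. Of 30 other protein-coding genes next to these clusters in the reference gene table, 16 were measured, with 9 lower, 7 higher and a median of -0.03. Their differences ranged from -0.34 to 0.52, the latter a lower bound (Nsun5, 53.4 and 97.2 before the floor), a gene named after its values were seen.

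Promoter sequences of 250 bases before to 50 after the start were listed for Ccl3, Ccl6, Ccl8, Ccl9 and Ccl12. Those of the neighbours Ccl3, Ccl6 and Ccl9 are shown (RefSeq, GRCm38.p6, minus strand, printed in the direction of transcription). The reason is that after quantile normalization Ccl3 was lower while Ccl6 and Ccl9 differed by less than the SD between probe sets. The printed promoters cover chr11:83649329-83649628, chr11:83593038-83593337 and chr11:83578587-83578886, and capitals mark motif matches on either strand.
Ccl3: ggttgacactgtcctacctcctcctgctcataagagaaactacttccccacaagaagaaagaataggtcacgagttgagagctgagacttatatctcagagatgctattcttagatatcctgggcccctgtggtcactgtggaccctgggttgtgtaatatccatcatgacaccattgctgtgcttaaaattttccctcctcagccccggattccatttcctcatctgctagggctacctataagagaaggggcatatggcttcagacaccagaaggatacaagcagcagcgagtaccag
Ccl6: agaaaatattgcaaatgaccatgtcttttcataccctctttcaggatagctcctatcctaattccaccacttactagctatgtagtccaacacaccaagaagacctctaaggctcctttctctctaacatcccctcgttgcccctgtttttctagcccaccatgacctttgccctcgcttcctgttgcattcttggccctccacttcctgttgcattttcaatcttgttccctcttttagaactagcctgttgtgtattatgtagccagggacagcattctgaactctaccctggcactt
Ccl9: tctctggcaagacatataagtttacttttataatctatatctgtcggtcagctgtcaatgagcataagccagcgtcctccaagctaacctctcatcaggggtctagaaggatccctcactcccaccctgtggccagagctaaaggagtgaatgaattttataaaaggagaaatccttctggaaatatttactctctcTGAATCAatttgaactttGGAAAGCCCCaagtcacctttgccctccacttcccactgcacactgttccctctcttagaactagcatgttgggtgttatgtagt

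Motifs searched were the NF-kB consensus, ISRE (GAAA, 2 bases of any kind, GAAA), AP-1 (TGANTCA), GAS (TTCNNNGAA), STAT6 (TTC, 4 bases of any kind, GAA) and C/EBP (TTGCNNAA). Over 27018 genes with 1 promoter each, they occurred in 8.18%, 3.49%, 7.94%, 8.47%, 6.98% and 10.8%. Among the 5 chemokine promoters only that of Ccl9 held a match, with 1 AP-1 match at bases 198 to 204 and 1 NF-kB match at bases 216 to 225, which do not overlap. The promoters of Ccl6 and Ccl9 shared a run of 13 bases, and that of Ccl3 shared at most 8 with either. These are matches of letters within 300 bases.

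Markers of other cells that such cultures may hold were read beside the chemokines, and their part in the differences was not tested. These counts are after normalization, where 48.5% of all measured genes were lower. In the deposited values, 9 of 10 macrophage, 9 of 11 dendritic cell and 9 of 10 granulocyte markers were higher, and with hybridisation controls 6 of 11 dendritic cell markers were higher. The share of all genes higher under those scalings was not computed, and the median measured gene lay at 0.54 and 0.23. Relative to the median gene, the medians of these lists in the deposited values were 0.13, -0.21 and -0.36. Macrophage and monocyte markers were higher in 7 of 10 measured genes (median 0.20), with a summed normalized signal of 49248 in wild-type cells and 49700 in the knockout. Mrc1, Ccr2 and Mertk (318 and 558) were at least 1.5-fold higher. Dendritic cell markers were lower in 8 of 11 (median -0.18, summed 37084 and 32172), and granulocyte markers in 7 of 10 (median -0.35, summed 11697 and 13837). The 3 higher granulocyte markers were S100a8 (4517 and 6092) and Mmp8 (3736 and 4845), the brightest of that list, and Csf3r (877 and 1008). The dendritic cell marker Cd83 (5619 and 3610) was 1.56-fold lower, and the granulocyte marker Ltf passed the floor in wild-type cells alone (at least 1.65-fold lower). For mast cells and basophils 5 of 8 markers were measured, which summed to 3163 and 1630, of which Hdc, the histamine-forming enzyme gene, gave 2624 and 1411. Mcpt8 (at least 2.68-fold lower), Cpa3 (at least 2.21-fold) and Ms4a2 exceeded the floor in wild-type cells alone, so these 3 could count only as lower. B and plasma cell markers, of which 5 of 7 with a probe set were measured, summed to 1621 and 366. Jchain (436 and 92.6) and Ighm (734 and 142) were measured on both arrays, though of 8 measured Ighm probe sets 5 were lower and 3 higher, and the other 3, among them Mzb1 (at least 3.75-fold lower), passed the floor in wild-type cells alone and could count only as lower. T and NK cells had 2 of 8 measured (summed 201.5 and 253.8), with Cd3d, Cd3e, Cd3g, Nkg7 and Ncr1 below the floor on both arrays. Eosinophil markers had 2 of 3 measured (summed 329.9 and 372.8), 1 higher (Siglecf, 161 and 249) and 1 lower (Prg2, 169 and 124). Stromal markers had 5 of 7 measured, 3 lower and 2 higher (summed 8891 and 5747), and Thbs1 alone gave 8507 and 5408 of these sums. Control probe sets for 18S ribosomal RNA ranged from 95.1 to 126.1 in deposited signal in wild type, and from 389.2 to 581.9 in the knockout. With 1 array per genotype, this gap cannot be told apart from genotype, and its part in the chemokine differences was not tested.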

How the data were processed

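RNA from 1 wild-type and 1 miR-155-/- culture, both given LPS, was labelled from 6 ug of total RNA and hybridised to Affymetrix arrays, per the labels' protocols. The authors deposited 1 linear intensity per array for 45101 probe sets; the sources used here do not name the algorithm. The 64 control probe sets were left out. As the array medians differed by 34.1%, over the limit of 10%, log2 intensities were quantile normalized (Python 3.11.15, numpy 2.4.6, pandas 2.3.3), which removes any difference in total signal. Only the quantile normalization was tested on simulated data, with less noise than the error inside the arrays and no dim probe sets changed. The floor, the choice of probe sets and the counts were not tested. Gene names came from the platform annotation, where 34945 probe sets named 1 gene, updated through the reference gene table (GRCm38.p6). A gene was represented by its probe set with the highest mean.

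Named genes were all members, all receptors in the lists, and the genes of the other lists at least 1.5-fold different (at most 6, or the 3 with the largest differences). Cell type markers were named only where at least 1.5-fold different or where the text singles one out. The members and lists were chosen with earlier results of these data known. Alternatives were other scalings (limma 3.58.1 for cyclic loess), floors and probe set rules. The number of arrays limits the precision.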

Additional observations from a re-analysis of the deposited data

How the results depend on the processing

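Over 9 alternatives, 68 of 79 differences of single members moved by less than the SD between probe sets and 11 moved by more: 8 of these in the deposited values, those of Ccl24 with no floor (3.41) and with the floor at the 25th percentile (1.67), and that of Ccl7 with the floor at the 75th percentile (-0.44). Many of the 68 could not move, so this count is no measure of stability. Probe set rules leave genes with 1 probe set as they are, and floors leave the values above them unchanged. In the deposited values the median difference of the members was 0.21, with 2 members lower and 0 at least 1.5-fold lower, since no scaling was applied. Of all measured genes 0.498% were at least 1.5-fold lower there. The count at least 1.5-fold lower was 1 with centring on the median (Ccl7), 0 with scaling on hybridisation controls and 1 with the floor at the 75th percentile (Ccl3), where the bound on Ccl7 falls short of 1.5-fold. Of all measured genes 2.91%, 1.96% and 2.11% were at least 1.5-fold lower under these settings. The count at least 1.5-fold higher was 2 with no floor and 2 with the floor at the 25th percentile (Ccl12 and Ccl24), both from wild-type signals under 10. The share of all genes at least 1.5-fold higher was not computed there, while 13.5% and 9.82% were at least 1.5-fold lower. Ccl8 and Ccl24 gave no value with the floor at the 75th percentile. No paired analysis was possible because each genotype has 1 array, and no array could be left out. Signal over background limits Ccl8, Ccl12 and Ccl24.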

Other observations

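Genes that bind or process chemokines, type I interferon response genes and alternative activation genes were read as groups. After normalization 48.5% of all measured genes were lower. Of 10 measured genes that bind or cut chemokines, 6 were lower and 4 higher (median -0.15), and none was 1.5-fold different. Those with the largest differences were Mmp2, a gelatinase gene (-0.51), Sdc1, a heparan sulphate proteoglycan gene (0.42, with 3 of 4 probe sets higher), and Dpp4, a protease that trims chemokine ends (0.35, with 3 of 3). Of 12 measured interferon response genes, 10 were lower (median -0.15). Cxcl10, a CXCR3 ligand, was the only one at least 1.5-fold lower (4481 and 2236), followed by Ifit1 (-0.35) and Rsad2 (-0.27). Of 11 measured alternative activation genes, 7 were lower (median -0.07), with 3 at least 1.5-fold lower and 1 at least 1.5-fold higher, against 4.1% and 4.57% of all measured genes. The mannose receptor gene Mrc1 was higher (138.5 and 288.0). Socs2 was lower (3244 and 1675), with 5 of 6 measured probe sets lower and the highest at 0.72. Ccl17 and Ccl22 were lower as given above. These directions are after quantile normalization. With centring on the median the binding and processing genes were split 5 to 5. In the deposited values 0 of them, 1 interferon response gene and 3 alternative activation genes were lower, where the median measured gene lay at 0.54. Of the interferon response genes, 8 were lower with centring on the median and 7 with hybridisation controls. Relative to the median gene their median was -0.16 after quantile normalization and -0.27 and -0.26 under those 2 settings. Some genes, Irf7 among them, were counted in more than 1 list.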
